A study of Mus musculus with 2 samples.

Results

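Dense clusters of distal LSD1 peaks are stretches of the mouse genome in which peaks of LSD1, the lysine-specific histone demethylase that Kdm1a encodes, follow one another at short intervals away from the starts of protein-coding transcripts. They were chosen by the positions of the peaks in 1 list: a peak was distal when its midpoint lay more than 2.5 kb from every protein-coding transcript start, distal peaks with a gap of at most 12.5 kb were joined, and runs of 5 or more peaks were kept. The rule found 1074 clusters, which hold 7574 of the 41904 distal peaks (18.1%, Wilson 95% interval 17.7 to 18.4%) and 12.8% of the 59175 peaks of the whole list. The interval treats each peak as independent, although the rule admits peaks only in whole runs, so it is likely too narrow. LSD1 binding had been mapped by chromatin immunoprecipitation and sequencing (ChIP-seq) in primary brown adipocytes, fat cells that make heat, which came from C57BL/6 N mice with the genotype label Control and had been differentiated in culture. The cells were at passage 2 to 3 and were taken on day 10 of differentiation, after induction with 850 nM insulin, 1 µM dexamethasone (a synthetic glucocorticoid), 1 µM rosiglitazone (an agonist of the nuclear receptor PPARγ), 125 nM indomethacin, 1 nM T3 (thyroid hormone) and 500 µM isobutylmethylxanthine (a phosphodiesterase inhibitor that raises cAMP). The 2 libraries, an LSD1 immunoprecipitate and an input without antibody, come from cells given the same agents, and no untreated or LSD1-deficient cells were analysed here. There is 1 immunoprecipitate and 1 peak list, so no value below has a replicate check and no test between conditions was possible. The positions and scores come from the same library that chose the clusters, and they are given as a description.

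LSD1 removes methyl groups from lysines of histone H3 and acts mostly in complexes with CoREST proteins and histone deacetylases. It is brought to promoters and enhancers by transcription factors and by its partner proteins. Enhancers are stretches of regulatory DNA that act on genes at a distance, and many of them in 1 neighbourhood are often found around genes that define a cell type or respond to signals. In brown fat, LSD1 is known for its work with Prdm16, the regulator of brown fat identity, and with other factors that set the balance between brown and white fat genes. A peak shows where LSD1 or a complex that holds it was enriched, not whether a gene was active, and the nearest gene is a neighbour rather than a measured target. Markers of brown adipocytes cannot be read as expression from such a list: Ucp1, the uncoupling protein of brown fat, had no promoter peak, and Adipoq, which encodes adiponectin, had one with a score of 76.0.

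The DNA under the highest peaks is shown for 4 of the clusters with the most peaks, to set a window at the start of a noncoding gene beside windows far from starts. Each line gives the central 120 bp of the highest-scoring peak of the cluster, 5′ to 3′ on the plus strand of mm10, in lower case with motif matches in capitals. The first is at chr19:5845519-5845638 by the start of Neat1, a nuclear long noncoding RNA, and its capitals are 1 match to the KLF/SP motif GGGCGG, which zinc-finger factors of the KLF and SP families recognise. The next, at chr2:167570439-167570558 between Snai1 and Ube2v1, has a match to the AP-1 motif TGANTCA and one to the TEAD motif GGAATG. The last 2 are at chr14:25487573-25487692 in an intron of Zmiz1 and at chr1:135755285-135755404 in the Csrp1 cluster, and hold none of the 12 motifs searched.

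Neat1 start: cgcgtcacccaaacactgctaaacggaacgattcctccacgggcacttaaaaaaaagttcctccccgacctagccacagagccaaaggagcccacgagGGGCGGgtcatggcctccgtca
Snai1 cluster: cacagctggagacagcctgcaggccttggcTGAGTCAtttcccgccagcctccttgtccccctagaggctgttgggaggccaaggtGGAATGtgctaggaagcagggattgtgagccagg
Zmiz1 cluster: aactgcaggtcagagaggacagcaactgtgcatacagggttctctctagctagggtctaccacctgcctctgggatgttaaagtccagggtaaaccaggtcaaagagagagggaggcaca
Csrp1 cluster: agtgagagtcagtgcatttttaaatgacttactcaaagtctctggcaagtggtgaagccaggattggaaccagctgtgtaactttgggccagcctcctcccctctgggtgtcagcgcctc

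The GC content of these windows was 58.3% at the Neat1 start, 60.8% in the Snai1 cluster, 52.5% in the Zmiz1 cluster and 51.7% in the Csrp1 cluster. The window of the Neat1 start holds 9 CpG dinucleotides, against 1 in the Snai1 and Csrp1 windows and 0 in the Zmiz1 window. Of these 4, the window at the start of a noncoding gene thus carries most of the CpGs. In 5 further clusters with many peaks, whose windows are not printed, the GC content ran lower, from 38.3 to 51.7%, with 0 to 3 CpGs, so the 4 windows do not span the range.

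Most clusters were short runs of peaks. The number of peaks had a median of 6 (quartiles 5 and 8), 418 clusters (38.9%) had exactly 5, 140 (13.04%) had 10 or more, and 10 had 20 or more. The span, from the first base of the first peak to the last base of the last, had a median of 27549 bp and ran from 4943 to 120825 bp, and the spans together covered 32.7 Mb, or 1.24% of the assembled sequence. Within a span the member peaks covered a median of 17.3% of the bases, and the gap between neighbours had a median of 3089 bp, far below the joining limit. Around the limits of the rule, the nearest joined gap was 12499 bp and the nearest unjoined one 12501 bp, and 1690 unjoined gaps were no longer than 15 kb. The 782 runs of 4 peaks, just outside the rule, had a median summed score of 542 and a median highest score of 218, and the 418 runs of 5, just inside, had 697 and 248.

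The score is the authors' value for each peak, on a scale that no label or header states, so it serves only to rank and describe peaks of this list. Peaks in clusters had a median score of 113 (quartiles 87.2 and 182) and the 34330 other distal peaks one of 100.1 (83.8 and 136), while the 17271 peaks near protein-coding starts had a median of 192. The low end was shared, and the clusters differed at the high end: 22.1% of clustered peaks (95% interval 21.2 to 23.1%) scored 200 or more, against 12.2% of other distal peaks (11.8 to 12.5%), and 3.35% against 1.42% scored 500 or more. These intervals cover counting error only. The median was 97.7 for peaks that stood alone, 109 in runs of 4, 109.9 in runs of 5, 107 in runs of 6 and 129 in runs of 15 or more. The share with a score of 500 or more was 0.995% for peaks alone and 6.40% in runs of 15 or more, and no step stood at the limit of 5 peaks. Score and width went together, with a Pearson r of 0.849 between their logarithms over the 7574 clustered peaks, and clustered peaks had a median width of 640 bp against 599 bp for other distal peaks.

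**Figure D1:**
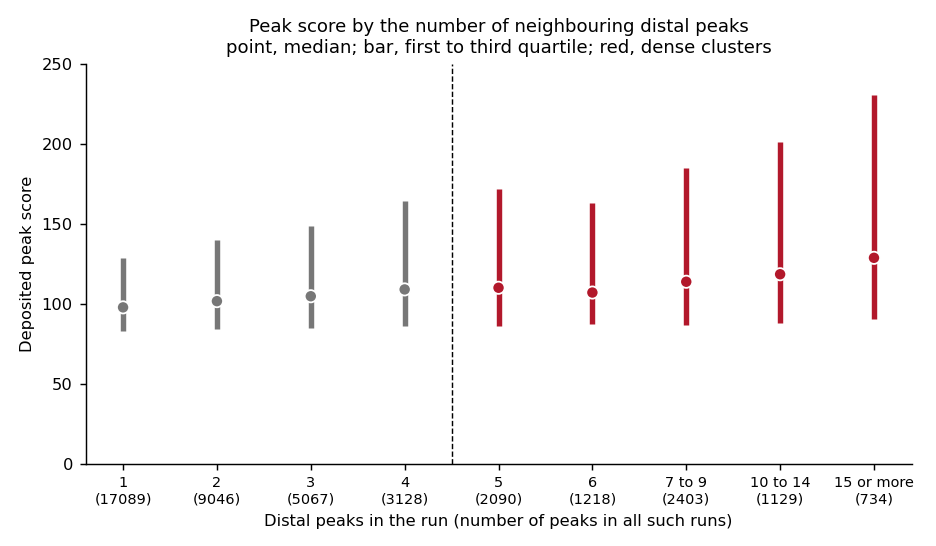
Deposited score (vertical axis, no stated unit) of distal peaks by the number of peaks in their run (horizontal axis, with the number of peaks in brackets); points are medians, bars run between the quartiles, and red marks the dense clusters. The medians lie between 97.7 and 129 and the upper quartiles spread from 129 for lone peaks to 230.2 in runs of 15 or more.

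A cluster was usually 1 or a few high peaks among low ones. The highest peak scored a median of 2.40 times the median peak of its own cluster and held a median of 29.9% of the summed score. In clusters of 5 it held 34.7%, where an even division, the least the highest peak can hold, gives 20%, and in clusters of 10 or more 20.8%. Runs of 4 peaks, outside the rule, also had a median highest score, 218, above their median peak score, 109. A peak of 200 or more was present in 813 clusters (75.7%), one of 500 or more in 203 (18.9%) and one of 1000 or more in 31. Clusters in which every peak scored above the median of all distal peaks numbered 31, and those in which none did numbered 8. The high peak had no fixed place: it was the first or last of its cluster in 28.7%, against 31.6% were every position equal, and the scores of neighbouring peaks were almost unrelated (Pearson r of 0.020 between log scores of 6500 neighbouring pairs, which share a library). Over the 1074 clusters the log number of peaks and the log summed score had a Pearson r of 0.783, a relation that summing over more peaks brings with it.

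**Figure D2:**
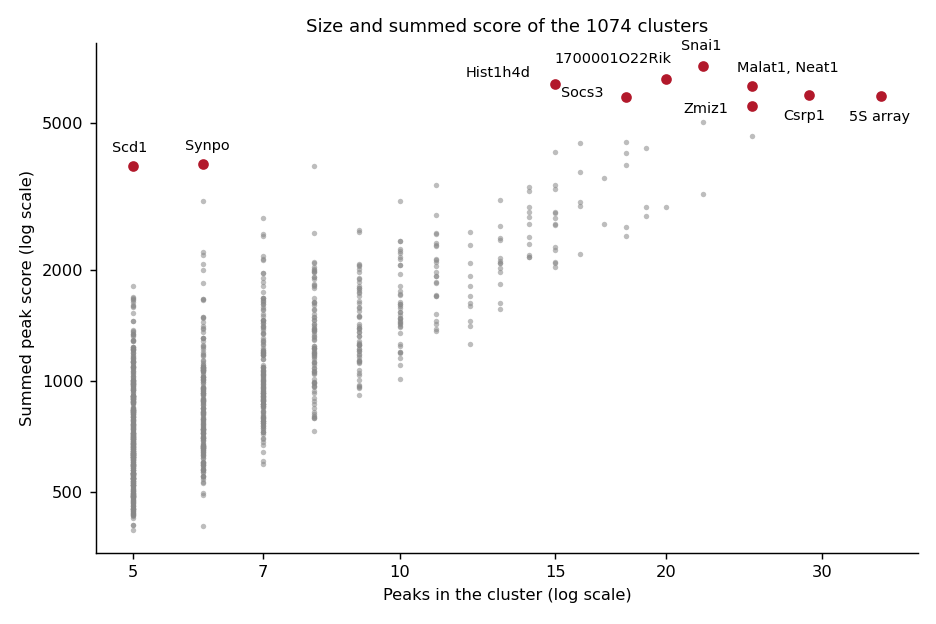
Number of peaks (horizontal axis, log scale) and summed deposited score (vertical axis, log scale) of the 1074 clusters, 1 point each, with 10 named clusters in red. The Snai1 cluster is highest at 7122 with 22 peaks, and the Scd1 cluster reaches 3810 with 5 peaks because 1 of them scores 3100.

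The cluster with the highest summed score, 7122, was between Snai1, which encodes a zinc-finger repressor best known from epithelial-mesenchymal transition, and Ube2v1, a ubiquitin-conjugating enzyme variant, at chr2:167540853-167614492. Its 22 peaks scored from 78.1 to 1478 with a median of 133. The 2 highest, 1478 and 1164, stand at chr2:167569479-167571517 and chr2:167574329-167576684, 32303 and 37311 bp from the nearest protein-coding start, and the next in score were 878, 739, 506 and 410. The other 16 peaks lay between 78.1 and 280.3, so 6 peaks stood well above the rest. Of the 22 peaks, 16 overlap Gm11476, an annotated noncoding transcript on the plus strand. The promoter of Snai1 itself carried a peak of 2837.

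On the same chromosome, the cluster at chr2:30676921-30726778 had the next highest summed score, 6544, from 20 peaks. All 20 lie outside protein-coding genes, the closest 75226 bp from a protein-coding start, and the nearest start to the cluster's midpoint belongs to 1700001O22Rik. Its 2 highest peaks, 1518 and 1252, stand next to each other, and the lowest scored 78.7 (median 206). The span overlaps 4 noncoding genes, among them the microRNA gene Mir3089 under a peak of 79.2. Peaks above 250 also occurred in a separate stretch, where the third to the sixth peak scored from 262 to 507, and no protein-coding gene lies in the span.

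The longest span, 120825 bp at chr1:135658797-135779621, had 29 peaks and a summed score of 5939. It reaches over Csrp1, a LIM-domain protein of the actin cytoskeleton, Phlda3, a p53 target, and Tnni1, the slow skeletal muscle troponin I, and spans 3 protein-coding starts. Its peaks were more even than those of the Snai1 cluster, from 61.4 to 605 with a median of 130.1. The promoter of Csrp1 itself had a modest score of 145. The peaks of 554, 484 and 430.1 lie upstream of Csrp1, the 5 peaks in its introns scored from 61.4 to 120.2, and the highest, 605, stands beyond the gene.

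Zmiz1, which encodes a PIAS-like transcriptional coactivator, had a cluster of 25 peaks wholly inside the gene at chr14:25465072-25566265, with a summed score of 5554. All 25 peaks are in introns, from 6143 to 106463 bp from the nearest protein-coding start. Peaks of 966, 827 and 780 stood above the other 22, which scored from 69.6 to 285. With 2 clusters upstream of the gene, Zmiz1 was linked to 3 clusters and 37 peaks.

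Socs3, a feedback inhibitor of cytokine signalling, had 18 peaks at chr11:117930472-118003921 with a summed score of 5862 and a median of 262. Its highest peak, 1586, lies 5709 bp from the nearest start, the next highest scored 560, and the lowest scored 76.8. Its promoter peak scored 1230. Its median was higher than that of the Snai1 cluster, 133, but it had 2 peaks of 500 or more against 5 there.

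Some of the largest clusters lie on transcribed noncoding genes, which the rule did not screen because it measured distance from protein-coding starts only. The cluster with the most peaks, 35 at chr8:123538419-123629563, covers a tandem array of 51 annotated 5S ribosomal RNA genes, and 32 of its peaks overlap one of them. Its scores ran from 76.3 to 373 with a median of 149.7 and quartiles of 108 and 226. The highest scored 2.49 times the median, close to the 2.40 of the median cluster. In its peaks 96.3% of the 32-base words occur more than once in the genome and 79.1% of the bases are repeat-masked. Reads from such copies cannot be placed with certainty, so the positions and scores of peaks within the array are uncertain. How such reads were filtered and whether the input entered the peak calls are not stated, so the enrichment itself could not be checked here. A second cluster on noncoding genes, 25 peaks at chr19:5787062-5856855 with a summed score of 6266, holds Malat1 and Neat1, nuclear long noncoding RNAs made in large amounts in many cells. Its highest peak, 701, lies over the start of Neat1, 11 of its peaks overlap Neat1, and the start of Malat1 is under a peak of 152. Recurring words made up 3.33% of this second cluster, near the mean of all clustered peaks.

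**Figure D3:**
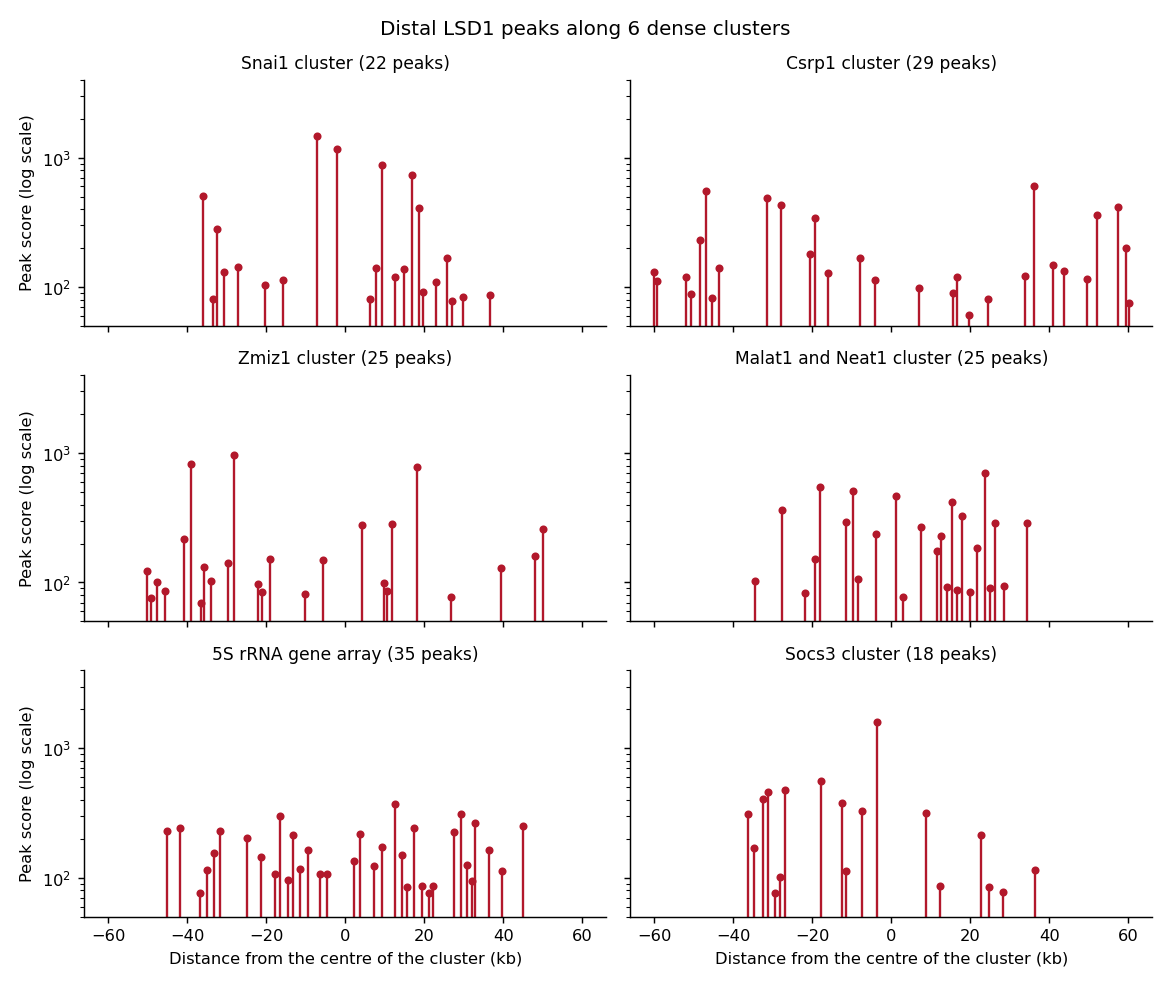
Distal LSD1 peaks of 6 clusters, with the distance of each peak from the centre of its cluster (horizontal axis, kb) and its deposited score (vertical axis, log scale); each stem is 1 peak. A few stems of 400 or more stand among many near 100 in the Snai1, Zmiz1 and Csrp1 panels, and all 35 stems of the 5S array lie between 76.3 and 373.

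Histone genes made up another group of large clusters. The Hist1h2bn cluster on chromosome 13 (22 peaks, summed score 5006) overlaps 8 replication-dependent histone genes and has a highest peak of 1703. The Hist1h4d cluster at chr13:23584321-23615437 (15 peaks, summed score 6353) has a highest peak of 3100, 4342 bp from a start, and the next highest scored 737. Histone genes are near-identical copies, and recurring words made up 36.0% of the peaks of the Hist1h2bn cluster and 10.6% of those of the Hist1h4d cluster. The other clusters named for their number of peaks were those by Csf1, the macrophage colony-stimulating factor (25 peaks over 109482 bp, highest 505), Fbln2, a fibulin of the extracellular matrix (22 peaks, highest 698), and Sh3pxd2a, a scaffold of invasive adhesions (20 peaks, highest 407).

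High single peaks also occurred in small clusters. Scd1, which encodes stearoyl-CoA desaturase, the enzyme that makes monounsaturated fatty acids, had 5 peaks with scores of 112, 258, 3100, 122 and 217, and the highest spans chr19:44394105-44397990, 11662 bp from a start. It held 81.4% of the summed score, the highest share of any cluster, and exceeded the Scd1 promoter peak of 484. Synpo, an actin-associated protein, had a peak of 2390 among 6 peaks, and the next highest scored 684. Nanos3, an RNA-binding protein of germ cells, was the nearest start to a cluster of 8 with peaks of 1808, 926 and 554, and 2 of its peaks overlap the long noncoding gene Gm26887. The Dynlt1b cluster of 10 peaks reached 1869, but recurring words made up 88.3% of its peaks, so its scores are uncertain in the same way as those of the 5S array. The value 3100 may be a ceiling of the score: exactly 3100 was recorded for 33 peaks of the list, 2 of them in clusters, by Scd1 and Hist1h4d, and only 1 peak, near a start, scored more. The order among these peaks is therefore unknown, and the sums and the share that rest on them may be too low.

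The densest clusters had short spans, and their scores were mixed. Ywhah, a 14-3-3 protein, had 5 peaks within 4943 bp of its introns (10.1 peaks per 10 kb) with scores of 138, 78.1, 92.7, 76.9 and 85.1. Pdgfrb, the platelet-derived growth factor receptor of mural cells and fibroblasts, had 7 peaks in introns within 9947 bp with scores from 77.3 to 124. Olfm2, Midn and Ptpn3 complete the 5 densest, at 6.82, 6.74 and 6.72 peaks per 10 kb. Their highest peaks scored 446, 945 and 377, above the median of 293 for the highest peak of all clusters, whereas no peak exceeded 138 in the clusters of Ywhah and Pdgfrb.

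Clusters lay in and near genes. Of the 1074 spans, 749 (69.7%, 95% interval 66.9 to 72.4%) overlap a protein-coding gene, 398 (37.1%) lie wholly inside one, and 325 (30.3%) overlap none. The 325 were a median of 50567 bp from the nearest start, and 165 of them lay more than 50 kb away. A span crossed a protein-coding start in 290 clusters, and 253 clusters enclose peaks near starts, 499 in all, which the rule passes over and which are not counted as members. Single members were in introns in 49.4% (other distal peaks 45.0%), outside protein-coding genes in 46.8% (50.3%) and in exons in 3.78% (4.71%). Their median distance to the nearest protein-coding start was 23506 bp against 31350 bp for other distal peaks. A start of another kind of transcript lay within 1 kb of 7.02% of members and 6.58% of other distal peaks, so clusters as a group were only slightly closer to noncoding starts.

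Chromosomes 1 to 19 had between 26.4 clusters per 100 Mb (chromosome 14) and 80.0 (chromosome 11), and 13.02 to 23.7% of their distal peaks were in clusters. Across the 19 autosomes the density of distal peaks and the percent in clusters had a Pearson r of 0.839, which the joining rule favours since closer peaks are joined more often. Chromosome X had 0 clusters and 130 distal peaks, or 0.795 per Mb, against 13.4 to 24.6 per Mb on the autosomes, and chromosome Y had 0 clusters and 14 distal peaks.

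A gene was linked to a cluster when its body overlapped the span or when its start was the nearest to the midpoint. By this rule 1186 of 21853 protein-coding genes were linked, which is 5.43% of all and the background for every gene list below. Linked genes were long, with a median of 40395 bp against 17380 bp for all genes, and the linked share was 2.93, 3.61, 4.69 and 10.5% from the shortest to the longest quartile of genes. They also carried LSD1 at their own promoters: 984 (83.0%) had a peak within 1 kb of a start, against 12199 (55.8%) of all genes, with a median promoter score of 391 against 315. Put the other way, 8.07% of genes with a promoter peak were linked and 2.09% of genes without one. In each length quartile the linked genes had a promoter peak more often than all genes, 88.0 against 71.5% in the longest and 73.8 against 35.5% in the shortest. The nearest start to a cluster belonged to a gene with a promoter peak in 927 of 1074 clusters (86.3%, 95% interval 84.1 to 88.2%), against 76.0% for other distal peaks. A promoter peak is not a member of a cluster unless it is wide enough to reach in from a midpoint over 2.5 kb away. All these peaks come from the same library, so the comparison describes where LSD1 lay and is no independent evidence.

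Among them 129 genes were linked to 2 or more clusters and 24 of these to 3 or more. The count was led by gene models of unusual length: Gm20388, a model of 4434882 bp on chromosome 8, had 17 clusters, and Fgfr2, a fibroblast growth factor receptor annotated over 2960900 bp, had 5, whose nearest starts are those of Tacc2, Htra1, Chst15, Oat and Fam53b. Gse1, which encodes a protein that co-purifies with the LSD1 and CoREST complex, had 5 clusters with 37 peaks, of which 1 cluster begins upstream of the gene and 4 lie inside its 352935 bp, and the highest peak scored 373. Tgfbr3, the betaglycan coreceptor for TGF-beta, had 4 clusters with 25 peaks, all overlapping the gene. Irf2bp2, a corepressor gene of only 5691 bp, had 3 clusters with 37 peaks, the highest of which scored 726. Sept9, a septin of the cytoskeleton, and Pknox2, a homeobox factor, had 3 each, with 29 and 27 peaks. The Irf2bp2 clusters lie over the gene and on both sides of it.

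Gene lists differed in how many of their members were linked, and each count stands beside the 5.43% of all genes. Where all members have a promoter peak, the 8.07% of genes with one is the closer background. All members of the glucocorticoid, AP-1 and adipogenic factor lists have one, but only 2 of 14 skeletal muscle and 1 of 12 macrophage and leukocyte genes. The lists were chosen with earlier results of these data known, so their counts are a description. The glucocorticoid list had the highest share, with 8 of 18 members linked (44.4%): Fkbp5, Zbtb16, Dusp1, Sgk1, Klf9, Errfi1, Ddit4 and Cdkn1a. All 18 members have a promoter peak and their median length of 14859 bp is below the 17380 bp of all genes. The cells had been induced with dexamethasone, and cells without it were not analysed here.

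Fkbp5, a cochaperone that dampens glucocorticoid receptor signalling and is one of its best known targets, had 2 clusters with 12 peaks. In the cluster inside the gene at chr17:28454933-28473032 the 7 peaks scored 77.6, 84.1, 270.0, 58.2, 78.7, 146 and 140. In the cluster at chr17:28502185-28528120, which reaches beyond the gene, the 5 peaks scored 88.5, 81.1, 122, 1142 and 94.5. The peak of 1142, 5439 bp from the nearest start, scored about as high as the Fkbp5 promoter peak, 1161, and the next highest of the 12 scored 270.0.

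Errfi1, a feedback inhibitor of the EGF receptor, had 18 peaks over 100637 bp at chr4:150767315-150867951, with scores from 72.9 to 356. Most of these peaks lie outside genes, up to 86168 bp from the nearest start, and the promoter peak scored 503. Ddit4, an inhibitor of mTORC1 induced by stress and glucocorticoids, had a promoter peak of 1189 and was linked by nearest start only. Its cluster of 15 peaks, with a highest score of 469, overlaps Dnajb12, and the midpoint lies 30106 bp from the Ddit4 start. Of the members without a cluster, Hsd11b1, the enzyme that regenerates active glucocorticoids, had a promoter peak of 89.1 and 3 distal peaks from 10 kb upstream to its end, and Nr3c1, the glucocorticoid receptor, had a promoter peak of 1060.

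Preadipocyte, fibroblast and matrix genes followed with 8 of 20 linked (40%). Col4a1, a collagen chain of basement membranes, was linked to 34 peaks in 2 clusters. The cluster overlapping Col4a1 had 15 peaks with a highest score of 359. The other, linked by nearest start, overlaps Col4a2 instead and had 19 peaks with a highest score of 434. Col1a1, the fibrillar collagen chain, had 16 peaks in 2 clusters with a highest score of 622. Runx1, a transcription factor of progenitor cells, had 8 peaks in 1 cluster with a highest score of 185. Promoter scores of Col4a1 and Col1a1, 248 and 193, were lower than the highest scores of the clusters linked to them, whereas the Runx1 promoter scored 1656. The others linked were Pdgfrb, Dlk1, Thy1, Fn1 and Tgfbr2, and Pdgfra and Cd34 were the first in list order with none. Expression was not measured, and no label gives the share of undifferentiated cells in the culture.

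AP-1, TEAD and actin cytoskeleton genes had 7 of 22 members linked (31.8%). Tns1, a tensin that ties actin to integrins, had 20 peaks in 3 clusters within the gene with a highest score of 906, and Lpp, a LIM protein of focal adhesions, had 11 peaks in 2. Fosl1, Fosl2 and Jun, subunits of the AP-1 factor, and Actb, cytoplasmic actin, were linked with 5 or 6 peaks each, while Fos and Junb had none. A cluster was thus found by some AP-1 subunit genes and not by others, although Fos and Junb had promoter peaks of 696 and 308.

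Adipogenic transcription factors had 7 of 24 linked (29.2%): Cebpb, Klf4, Klf6, Klf9, Rxra, Nfia and Arntl. Cebpb, an early factor of adipogenesis, had 21 peaks in 2 clusters, and the larger, 14 peaks at chr2:167757408-167801295, lies 68850 to 112061 bp from the nearest start and scored from 75.7 to 660. Rxra, the partner of PPARγ on DNA, had 17 peaks in 2 clusters with a highest score of 505, and Arntl, the clock factor BMAL1, had 14 peaks in 1 with a highest score of 554. Nfia, a nuclear factor I protein needed for the brown fat programme, had 5 peaks in its first cluster with scores of 237, 86.5, 109, 105 and 187. Its second cluster, 212234 bp or more from the nearest start, had 7 with scores of 77.3, 79.4, 136, 779, 64.5, 129.9 and 134, of which 1 stood out. Pparg, the master factor of fat cell formation, was not linked: it had 5 distal peaks from 10 kb upstream to its end, the longest run touching it had 4 peaks, 1 fewer than the rule asks, and the highest scored 130.5, with a promoter peak of 401. Cebpa, another core factor, had 0 distal peaks in that window and a promoter peak of 1619.

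Of 26 brown fat regulators and thermogenic genes, 4 were linked (15.4%). Prdm16 had 7 peaks in introns at chr4:154481782-154500293, with scores of 76.6, 96.4, 146, 83.4, 136, 112 and 154, and its promoter peak scored 206. Ebf2, a factor that marks brown fat precursors, had 6 peaks outside the gene at chr14:67136204-67169596 with scores of 80.5, 77.3, 109.7, 77.1, 122 and 111, 63937 bp or more from a start. Neither cluster had a peak of 200 or more, while 75.7% of all clusters did. Thra, a thyroid hormone receptor gene, shares 7 peaks with Nr1d1, the clock repressor REV-ERBα, whose start is 35 bp from the middle of that cluster, with a highest score of 385, and Fgf21, a hormone that brown fat secretes in the cold, had 6 with a highest score of 542. Ucp1 had no distal peak from 10 kb upstream to its end, and Ppargc1a, the coactivator of mitochondrial biogenesis, had 3 and no cluster.

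LSD1 and its partner proteins had 4 of 18 linked (22.2%). Besides Gse1, they include Zfp217, a zinc-finger protein that binds CoREST and CtBP (11 peaks in 2 clusters, highest 193) and Ctbp2, a corepressor (5 peaks, highest 227). Kdm1a itself and Rcor1, which encodes CoREST, had none. Thus clusters were found by genes for some partners of LSD1 and not by its own gene, whose promoter peak scored 87.5.

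In the lipid list 3 of 28 were linked (10.7%): Fasn, fatty acid synthase, Scd1 and Mgll, monoacylglycerol lipase. The Fasn cluster at chr11:120799834-120817761 had 6 peaks with scores of 197, 288, 1041, 169, 237 and 143, of which the highest lies in an intron, 12233 bp from a start, and the Fasn promoter scored 637. Each of its 6 peaks lay above the median of all distal peaks, 102, which held in 31 of the 1074 clusters. The Mgll cluster had 7 peaks with a highest score of 487. Plin1 and Plin2, lipid droplet coat proteins, Fabp4, a fatty acid carrier, and Lpl, lipoprotein lipase, had no cluster.

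The remaining lists had 1 or 2 members linked, or none. White fat genes and repressors of brown fat identity had 2 of 18, Tle3 (12 peaks in 2 clusters) and Zfp423 (5 peaks), both cofactors that favour the white state. Insulin and IGF signalling had 2 of 18, Irs2, an insulin receptor substrate (13 peaks in 2), and Pik3r1, a regulatory subunit of PI3-kinase (15 peaks in 2). The Pik3r1 cluster of 6 peaks overlaps no protein-coding gene, and its midpoint lies 269045 bp from the Pik3r1 start. Adipokines had 2 of 14, Vegfa and Sparc, and cAMP signalling 1 of 16, Gnas, the stimulatory G protein subunit. Vegfa was linked by nearest start only, to a cluster with its midpoint 146279 bp away. Fatty acid oxidation and oxidative phosphorylation had 0 of 22 and cytosolic ribosomal proteins 0 of 18, although 19 and 17 of these genes carry a promoter peak. Of markers of cell types that the culture might also hold, skeletal muscle had 0 of 14, neuronal genes 0 of 14, macrophages and leukocytes 0 of 12 and endothelial cells 1 of 10 (Eng, by overlap with a cluster nearest to Fpgs). These counts hold for the chosen lists only. Tnni1, a skeletal muscle gene that is not in the muscle list, overlaps the Csrp1 cluster and so is linked. Ribosomal protein genes are short, with a median of 3799 bp, and the neuronal genes long, with a median of 95181 bp. In lists of this size the background of 5.43% is about 1 gene, so a count of 0 or 1 is close to it.

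**Figure D4:**
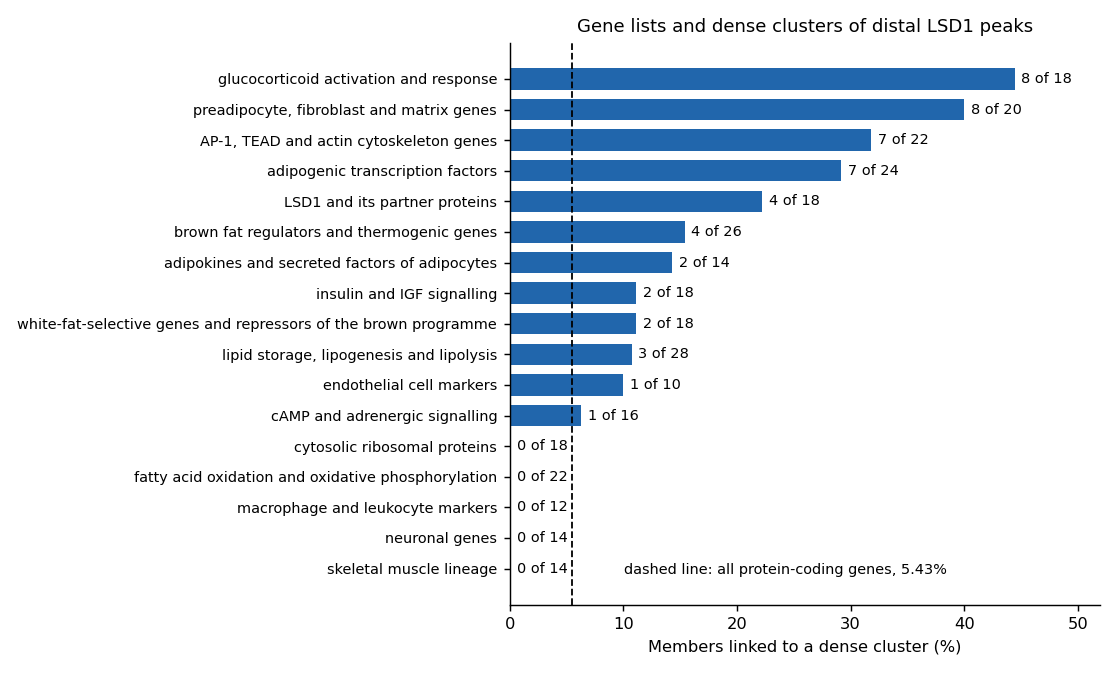
Percent of the members of each of 17 gene lists linked to a dense cluster by overlap or nearest start (bars, horizontal axis), with the counts beside them; the dashed line marks the 5.43% of all 21853 protein-coding genes. The glucocorticoid list reaches 44.4% and 5 lists have no linked member.

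The DNA of clustered peaks was a little richer in G and C than that of other distal peaks. The median GC content of the central 200 bp was 50.5% in clusters, 47% in other distal peaks and 59% near starts. The difference was present in each quartile of the distal scores: 49.5 against 46%, 49.5 against 46.5%, 50 against 47% and 52 against 49.5% from the lowest to the highest quartile. The observed over expected CpG ratio was low in both, with medians of 0.196 and 0.187, against 0.627 near starts. Repeat-masked bases made up a mean of 16.9% of clustered and 18.6% of other distal peaks, and recurring 32-base words 3.81 and 4.19%. Only 14 of 1074 clusters had recurring words in 20% or more of their peak sequence, among them the 5S array and 4 clusters near the Dynlt1 genes on chromosome 17.

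Motifs were searched as exact letters on both strands in the central 200 bp. They were AP-1 (TGANTCA), C/EBP (TTGCNNAA), TEAD (GGAATG), EBF (TCCCNNGGGA), the NFI full site (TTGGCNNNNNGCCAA) and NFI single site (TTGGCA, whose last letter the full site leaves free), the nuclear receptor repeat DR1 (AGGNCA, any 1 base, AGGNCA), the glucocorticoid receptor palindrome (GNACANNNTGTNC), ETS (CCGGAA), RUNX (TGTGGT), KLF/SP (GGGCGG) and the CTCF core (CCANNAG followed by GNGGC). Matches overlap other motifs by their letters in places, and a match is a description of the DNA and not a site of binding. In clustered and other distal peaks the AP-1 motif was present in 11.3 and 10.96%, against 4.48% near starts, 9.11% of all peaks and 6.01% of 132389 windows of 200 bp spaced through the genome. TEAD was present in 14.1 and 13.2% (genome 10.7%), RUNX in 16.2 and 15.9% (13.7%) and the NFI single site in 13.8 and 12.98% (9.95%). C/EBP was lower in clusters, 8.74 against 9.95%, with 9.46% in genome windows. KLF/SP was present in 6.17 and 4.73% (genome 1.94%), EBF in 0.951 and 0.652% (0.326%) and ETS in 3.25 and 2.82% (1.58%). CTCF was present in 0.792 and 0.737% (0.175%), DR1 in 0.489 and 0.446% (0.263%), the glucocorticoid receptor palindrome in 0.475 and 0.428% (0.309%), and the NFI full site in 2 clustered peaks (0.0264%; other distal 0.0495%, genome 0.00680%). The ratio of the share in clusters to that in other distal peaks ran from 0.533 for the NFI full site, which rests on 2 clustered peaks, to 1.46 for EBF, and was 1.303 for KLF/SP and 1.03 for AP-1. For KLF/SP this varied with score. From the lowest to the highest quartile of distal scores the shares were 5.55 against 3.46%, 4.12 against 3.18%, 5.18 against 3.91% and 8.41 against 8.86%. In the highest quartile the clustered share was thus the lower. Near starts KLF/SP was at 34.2% and ETS at 11.9%, far above both kinds of distal peak, while EBF, at 0.730%, lay between the clustered and the other distal share.

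Within clusters, the highest peak, picked by its score, differed from the other peaks. The AP-1 motif was in 14.2% of the 1074 highest peaks and 10.8% of the 6500 others, C/EBP in 11.1 and 8.35%, TEAD in 16.1 and 13.7% and KLF/SP in 9.22 and 5.66%. The highest peaks were also wider, with a median of 1013 against 615 bp, and had a median GC content of 51.5 against 50.5%, although every window searched had the same 200 bp. The order was the opposite for 5 motifs: RUNX (15.9 and 16.2%), the glucocorticoid receptor palindrome (0.279 and 0.508%), DR1 (0.372 and 0.508%), EBF (0.931 and 0.954%) and the NFI full site (0 and 0.0308%). Counted by cluster, 591 (55.0%) had at least 1 peak with an AP-1 match and 48 had 3 or more, 666 (62.01%) had at least 1 with TEAD, and 351 (32.7%) at least 1 with KLF/SP. The Zmiz1 cluster had AP-1 in 3 of its 25 peaks, C/EBP in 4 and TEAD in 5, the Fbln2 cluster TEAD in 6 of 22, and the 5S array KLF/SP in 15 of 35 and none with AP-1, C/EBP or TEAD.

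**Figure D5:**
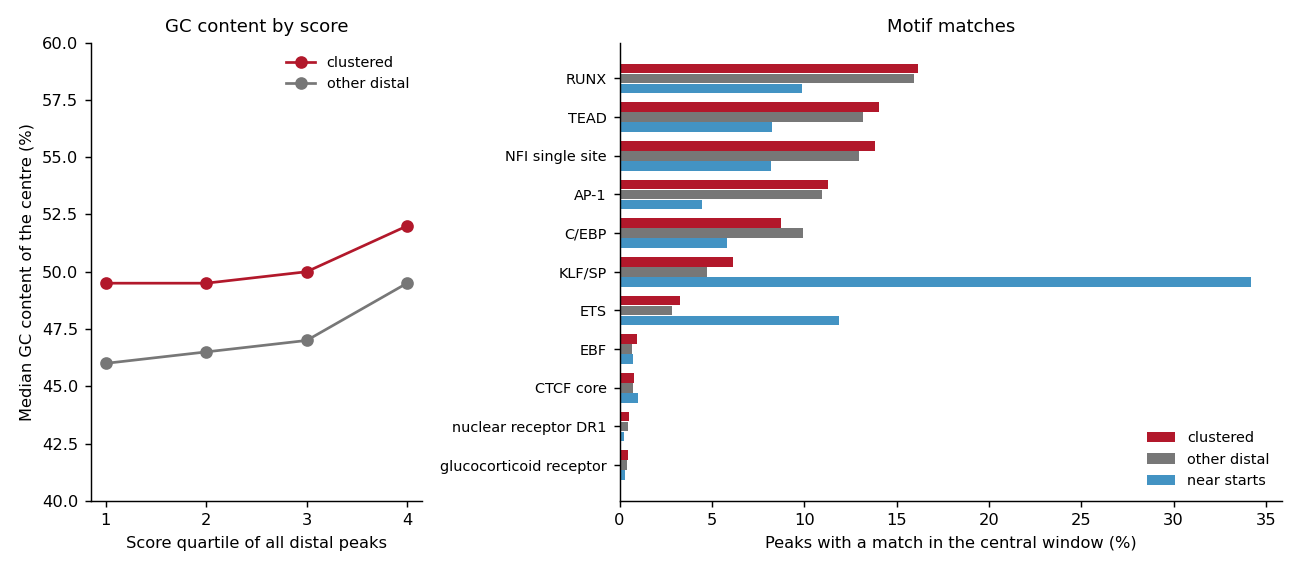
Left, median GC content of the central 200 bp (vertical axis, %, drawn from 40 to 60) of clustered and other distal peaks by quartile of the distal score; right, percent of peaks with a motif match in that window (horizontal axis) for clustered peaks, other distal peaks and peaks near starts, without the NFI full site. GC content is higher in clusters in each quartile, and KLF/SP reaches 34.2% near starts against 6.17% in clusters and 4.73% in other distal peaks.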

How the data were processed

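Per the labels' protocols, Illumina reads of the LSD1 and input libraries were aligned to mm10 by Bowtie2. The submitters' processing notes list MACS 1.41. The sources used here do not state the read filters, peak threshold or Bowtie2 version, nor whether the input entered the peak calls. Each peak of the deposited list has a position and a score, the authors' own value on a scale that is not stated. It holds no counts, so the depth is unknown.

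Clusters were built with Python 3.11.15, numpy 2.4.6 and pandas 2.3.3 from 54327 distinct protein-coding starts of GENCODE M21 on GRCm38.p6, the same chromosomes as mm10, and 0 peaks reached beyond a chromosome end. Gaps are next start minus previous end, and coordinates count from 1. Genes were linked by overlap of at least 1 bp or by nearest start, and a promoter peak overlaps the 1 kb on either side of a start. All 312 entries of 17 gene lists matched the annotation. Repeats are the lower-case bases of the reference, and recurring words are 32-base words found more than once in it (numba 0.67.0). The joining code was checked on simulated peaks.

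The members and gene lists were chosen with earlier results of these data known. Clusters named were the 10 with the most peaks, the 8 with the highest summed score, the 5 densest, the 5 longest and the 5 with the highest single peak. Genes named were the 8 linked to the most clusters, from each list up to 3 linked genes with the most clustered peaks and the first 2 without any, and a fixed set (Kdm1a, Ucp1, Prdm16, Nrf1, Hsd11b1, Pparg, Ppargc1a, Adipoq, Cebpa, Cebpb, Ebf2, Fabp4, Lpl and Nfia). Some items that these rules name are not reported here. Nrf1 had 2 distal peaks from 10 kb upstream to its end, a promoter peak of 763 and no cluster. Other linked list members are named only to account for small counts, and were chosen after their values were seen. Alternatives changed the joining gap, the distance from starts, the smallest cluster, the score threshold, and how genes, promoters and motif windows were defined.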

Additional observations from a re-analysis of the deposited data

How the results depend on the processing

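The 5 values below describe 1 library, and no replicate could be left out. No paired analysis was possible because the comparison has 1 sample a group and comes from no test. In order, they are the number of clusters (1074), the percent of distal peaks in clusters (18.1%), the median score of members (113), the percent of clusters overlapping a protein-coding gene (69.7%) and the percent whose nearest start has a promoter peak (86.3%). A joining gap of 5 kb gave 353, 5.26%, 119.7, 61.5% and 89.0%, a gap of 8 kb gave 614, 9.70%, 115.0 and 65.3%, and a gap of 20 kb gave 1646, 30.6%, 109.9 and 74.8%. A smallest cluster of 4 peaks gave 1856, 25.5% and 65.6% over a gene, and one of 8 peaks gave 291, 7.47%, 119.8, 75.9% and 91.4%. With only peaks at or above the median score of all peaks there were 197 clusters, 7.25% of distal peaks, a median of 186 and 91.9% with a promoter peak, and 194 (18.1%) of the 1074 clusters overlapped one of these. A distance of 1 kb from starts gave 21.2% in clusters and 76.8% over a gene, 5 kb gave 15.8 and 60.3%, and cutting clusters at starts gave 15.5 and 61.2%. The percent in clusters was 14.8% with the starts of all transcripts and 17.5% with the distance taken from the peak edge. With at least 50% of the span inside 1 gene the overlap was 51.9%, and with a promoter peak within 500 bp or 2.5 kb the last percent was 83.9 or 90.1%. The number and percent in clusters change by construction when more or fewer peaks are joined or kept, and for the other shifts the cause was not tested. The other 28 results of these alternatives stayed within the limits set for a change, which were wide for the number of clusters. That number was 1326 at 1 kb from starts, 871 at 5 kb and 802 with the starts of all transcripts. Clusters found at 1 kb overlapped 100% of the 1074 clusters, those at 5 kb 80.3% and those with all transcript starts 74.2%. The 28 results include those of 2 choices added after seeing the data. These left out the 14 clusters rich in recurring words (1060 clusters, 17.7%) or gene models over 2 Mb (69.1% over a gene). With links by overlap only, 3.90% of all genes were linked, with 5 of the glucocorticoid list, 4 of the preadipocyte list, 2 of the brown fat list and 1 of the adipokine list, and with links by nearest start only (4.35% of all genes) the endothelial list had 0. The wider motif window of 400 bp raised each share (AP-1 20.1% in clusters, 20.0% in other distal peaks).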

Other observations

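MicroRNA genes lay in some clusters, and those named here were chosen after their values were seen. Of 2202 annotated microRNA genes, 54 (2.45%) fall within the spans of 48 clusters, while 3.90% of protein-coding genes overlap a span and the spans cover 1.24% of the sequence. Mir21a, a microRNA abundant in many growing cells, lies in a cluster of 15 peaks at chr11:86564669-86605768 that overlaps Vmp1 and Tubd1, with a summed score of 4177 and a highest peak of 1073. Mir22 lies in a cluster of 7 peaks with a highest score of 1492. The neighbours Mir29a and Mir29b-1 share a cluster of 10 peaks with a highest score of 506, and Mir34a, a target of p53, lies in one of 9 with a highest score of 441.

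Clusters themselves often stood in groups. The distance between neighbouring clusters on a chromosome had a median of 612630 bp, but 153 of 1055 neighbouring pairs were within 50 kb of each other. Joining clusters within that distance gave 120 groups of 2 or more, which hold 273 of the 1074 clusters. The group with the most clusters, chosen after its values were seen, has 5 clusters with 51 peaks over 373680 bp at chr2:167679717-168053396 and includes the 2 Cebpb clusters, the Ptpn1 cluster and clusters by Ripor3. Ptpn1 encodes a tyrosine phosphatase that acts on the insulin receptor, and its cluster of 15 peaks over 92185 bp has a highest score of 498. Some histone genes on chromosome 13 form a group of 4 clusters with 41 peaks over 224140 bp at chr13:23519885-23744024. It includes the Hist1h4d cluster but not the Hist1h2bn cluster. The group around the 1700001O22Rik cluster has 4 clusters with 43 peaks and a summed score of 11016.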
